A study of Mus musculus with 33 samples.

Results

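The genes described here encode the muscle and ubiquitous forms of 3 subunits of cytochrome c oxidase in mouse cardiomyocytes: Cox6a2, Cox7a1 and Cox8b are the muscle forms, and Cox6a1, Cox7a2 and Cox8a are their ubiquitous partners. They are 6 of the 32245 genes in each table, were found by symbol, and all 6 passed the filter on low values in all 3 tables. The set was chosen by a measured value of these data, the higher level of Cox6a2 in Ptpmt1 knockouts of the PHT line, and its partner and the other isoform pairs were added by family. That contrast is therefore given as a description, with no test for any of the 6 genes. Contrasts of Cox6a2 that reuse its Ptpmt1 knockout or control libraries are given likewise.

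Cytochrome c oxidase is the last enzyme of the respiratory chain and passes electrons from cytochrome c to oxygen while pumping protons across the inner mitochondrial membrane. Its catalytic core is encoded by mitochondrial DNA, and the nuclear-encoded subunits around it take part in assembly, stability and regulation. Subunits 6a, 7a and 8 exist in the mouse as a form made in most tissues and a form made in heart and skeletal muscle. The muscle forms become more abundant as the heart matures after birth. Cox7a1 and Cox8b are also known from brown fat.

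RNA came from cells labelled as cardiomyocytes, with the molecule labelled nuclear RNA, and libraries had been depleted of ribosomal RNA. Every line used here is built on a cardiomyocyte-specific knockout of Ptpmt1, a phosphatase of the inner mitochondrial membrane needed to make cardiolipin, the lipid in which cytochrome oxidase is embedded. The FST line had 3 controls, 3 Eif2a mutants, 3 Ptpmt1 knockouts and 3 animals with both changes ("double"). The PHT line had 2 controls, 2 Hri knockouts (labelled cardiomyocyte-specific), 3 Ptpmt1 knockouts and 2 doubles. The PTGC line had 3 controls and 3 doubles that lacked Ptpmt1 and Gcn2, with neither single knockout, so the parts of the Ptpmt1 and Gcn2 losses cannot be told apart there. Eif2a here means the alpha subunit of initiation factor eIF2, which the kinases Hri and Gcn2 phosphorylate to start the integrated stress response (ISR), a programme that runs through the transcription factor Atf4. The labels used here give no age, sex, Cre driver or control genotype beyond "Control", and do not say how replicates were obtained. Groups with libraries of both sexes, by their Y-linked and Xist signal, hold more than 1 animal, and for the other groups the spread between replicates may be technical. These are 27 of the series' 33 samples, and the 6 samples of a line with the Ptpmt1 change alone were not analysed here.

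Libraries held from 1887978 (FST double replicate 2) to 12583868 reads in genes in the FST table, 10739569 to 19405261 in the PHT table and 10795644 to 19326112 in the PTGC table. FST double replicate 2 and FST Eif2a mutant replicate 1 stood apart from the rest of their table. The cardiomyocyte markers (11 genes, among them Tnnt2 and Myh6) held 4.63% to 7.60% of the signal of a library. Signal of other heart cells was present too: fibroblast markers held 0.114% to 0.285%, led by Col3a1, and endothelial markers 0.0871% to 0.118%. Of the 10 skeletal muscle markers Acta1 was the highest (1029 to 3655 normalized counts), Myod1 had 0 reads in all 27 libraries, and Pvalb and Myh4 reached at most 1.37 and 1.47. Tnnt3, Mylpf, Actn3 and Atp2a1 had reads in every library and reached 107.3, 118.5, 79.7 and 53.0. Myh1 and Myog reached 19.0 and 6.23. Of the 10 adipocyte markers Prdm16 was the highest (278 to 808), Lep had 0 reads in all 27 libraries, and Ucp1 and Plin1 reached at most 2.15 and 2.73. Dio2, Pparg and Fabp4 had reads in every library and reached 76.3, 38.1 and 34.7. Cidea, Adipoq and Elovl3 reached 13.0, 4.76 and 1.25. Ptpmt1 itself was lower in the groups that lack it: its mean fell from 163 to 35.5 normalized counts in FST knockouts and 45.2 in FST doubles, from 264.9 to 48.8 in PHT knockouts and 77.4 in PHT doubles, and from 328 to 71.2 in PTGC doubles. By Y-linked and Xist signal, all 3 FST Ptpmt1 knockouts and all 3 Eif2a mutants were male, as were 2 of 3 FST doubles and 1 of 3 FST controls. In the PHT line both doubles and both Hri knockouts were male, as were 1 of 3 Ptpmt1 knockouts and 0 of 2 controls. Each PTGC group held 2 males among 3 libraries. PHT controls thus shared no sex with PHT Hri knockouts or doubles. In bulk libraries a change in the share of cells of a type and a change in RNA per cell cannot be told apart.

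The coding sequences of Cox6a2 and Cox6a1 are shown because this pair carries the main difference in these data, and because reads are assigned to the isoforms by their letters. Both are read 5′ to 3′ along the minus strand of GENCODE release M21 (GRCm38), with capitals where the isoforms are identical in their alignment. Cox6a2 is shown whole (294 coding bases between chr7:128205729-128206295, introns removed) and Cox6a1 as its first 300 of 339 coding bases (chr5:115345843-115348950 holds the whole coding part).
Cox6a2: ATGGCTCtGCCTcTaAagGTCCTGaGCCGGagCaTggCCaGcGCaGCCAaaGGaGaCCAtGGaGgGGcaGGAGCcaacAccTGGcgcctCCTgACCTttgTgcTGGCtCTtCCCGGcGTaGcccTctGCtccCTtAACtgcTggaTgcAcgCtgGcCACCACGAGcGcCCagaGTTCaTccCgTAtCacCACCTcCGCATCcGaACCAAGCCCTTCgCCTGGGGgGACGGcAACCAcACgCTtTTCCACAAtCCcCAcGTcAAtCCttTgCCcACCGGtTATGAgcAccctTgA
Cox6a1: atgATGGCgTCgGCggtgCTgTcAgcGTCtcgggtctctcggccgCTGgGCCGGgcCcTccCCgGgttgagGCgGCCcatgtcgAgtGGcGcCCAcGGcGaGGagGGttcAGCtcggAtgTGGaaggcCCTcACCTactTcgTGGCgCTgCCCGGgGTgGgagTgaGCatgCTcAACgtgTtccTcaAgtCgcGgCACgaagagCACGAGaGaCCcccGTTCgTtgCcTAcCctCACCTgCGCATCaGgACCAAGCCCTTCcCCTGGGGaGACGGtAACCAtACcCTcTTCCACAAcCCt
Over 294 aligned positions 64.6% of bases were identical, and the longest run shared by the coding sequences was 12 bases. Cox7a1 and Cox7a2 were identical at 65.5% of aligned positions (longest shared run 12 bases) and Cox8b and Cox8a at 56.4% (10 bases). No pair of partners therefore has a long identical stretch in its coding part.

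Other features of the gene models bear on how reads are counted. Cox6a2 (chr7:128205435-128206387, minus strand) overlaps an exon of the integrin gene Itgad on the opposite strand, and Itgad had at most 2 reads in any library against at least 35 for Cox6a2. Cox6a1 (chr5:115345642-115348981, minus strand) shares 9.16% of its 50-base stretches with another annotated gene, AC148174.2, so part of its reads may be placed uncertainly. Cox7a1 (chr7:30184144-30186078, plus strand), Cox7a2 (chr9:79755361-79759878), Cox8a (chr19:7215153-7217616) and Cox8b (chr7:140898945-140900446, these 3 on the minus strand) share no 50-base stretch with another gene. All 6 are short genes, with 360 (Cox8b) to 944 (Cox7a2) exonic bases.

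Among controls the ubiquitous forms were the more abundant in each pair. Per kilobase of exon, Cox8a stood highest in FST controls with 2383 ± 65.6 normalized counts (SD, n = 3), followed by Cox6a1 (1798 ± 78.9) and Cox7a2 (1329 ± 26.0). The muscle forms followed with 406 ± 26.5 for Cox7a1, 353 ± 25.8 for Cox6a2 and 155 ± 58.6 for Cox8b. The Cox7a1 and Cox6a2 levels overlapped between control libraries, and the other neighbours in the order did not. The same order of means was found in PHT controls, where Cox6a1 (2095 ± 240.4, n = 2) and Cox7a2 (1966 ± 18.3) overlapped. It was also found in PTGC controls, where Cox6a1 (2975 ± 319.9, n = 3) overlapped both Cox8a (3794 ± 938) and Cox7a2 (2405 ± 297), and Cox7a1 (682 ± 29.0) overlapped Cox6a2 (666 ± 130.4). With the longest coding transcript as the length, the PHT order of Cox6a1 (2576) and Cox7a2 (2816) turned, so this place in the order depends on the gene model.

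The share of the muscle form within a pair, computed per kilobase, differed between the subunits. In FST, PHT and PTGC controls Cox6a2 made up 16.4% ± 1.58, 14.5% ± 0.019 and 18.2% ± 1.41 of the 6a pair. Cox7a1 made up 23.4% ± 1.14, 19.3% ± 1.10 and 22.2% ± 2.51 of the 7a pair. Cox8b made up 6.08% ± 2.22, 4.04% ± 0.314 and 6.36% ± 0.851 of the 8 pair. Cox8b rested on few reads, from 10 to 127 per library, and is the least precise of the genes.

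Cox6a2, the muscle form of subunit 6a, was the isoform that set the Ptpmt1 knockouts of the PHT line apart. Its normalized counts were 262 and 223 in PHT controls, 251 and 250 in Hri knockouts, 584, 533 and 612 in Ptpmt1 knockouts, and 303 and 432 in doubles. All 3 knockouts lay above all 6 other PHT libraries, and both doubles lay between the controls and the knockouts. The log2 fold change of knockouts against controls was 1.25 ± 0.14 (SE), and the other 5 isoforms lay between -0.10 (Cox7a2) and 0.13 (Cox7a1). Of all genes tested 0.301% were called in that contrast, which served to choose the members.

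**Figure D1:**
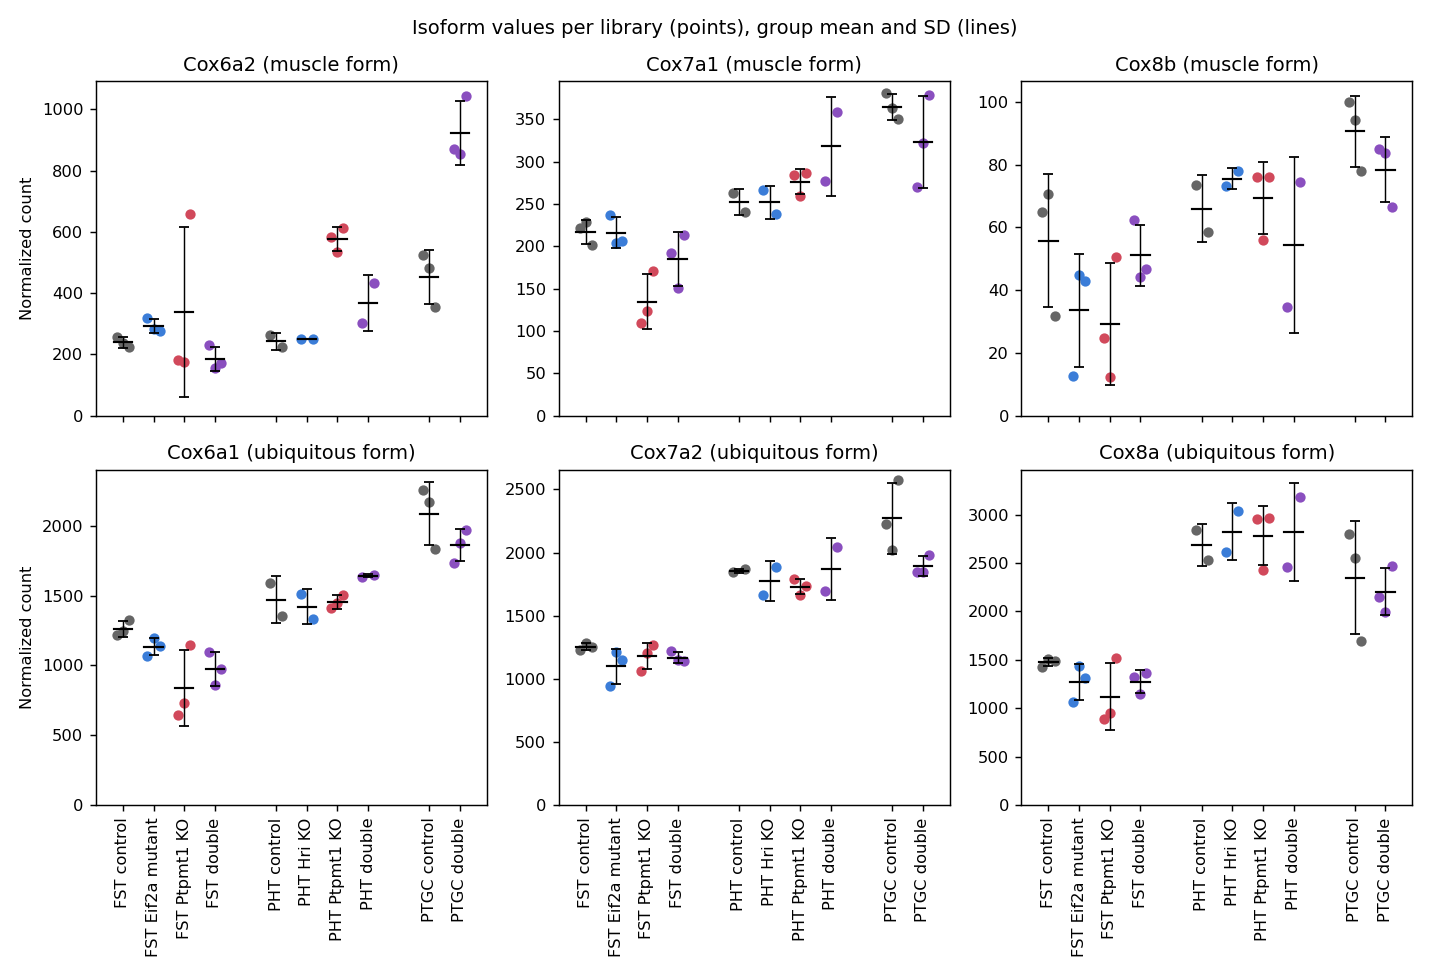
Normalized count of each isoform (vertical axes, from 0) in every library, by line and genotype. Points are libraries, and lines the group mean and SD. Cox6a2 is high in the 3 PHT Ptpmt1 knockouts (533 to 612), in the 3 PTGC doubles (855 to 1043) and in 1 of 3 FST Ptpmt1 knockouts (659), whereas the other isoforms show no such rise.

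In the PTGC line Cox6a2 rose in animals lacking both Ptpmt1 and Gcn2. It had 523, 482 and 353 normalized counts in controls and 870.4, 855 and 1043 in doubles, and the groups did not overlap. The log2 fold change was 1.04 ± 0.15 (limma, adjusted p = 0.00414), with all 3 doubles above all 3 controls. Cox6a2 was the 1 member of 6 called, against 0.743% of all genes tested in this comparison. The other 5 isoforms were not called and had log2 fold changes of -0.26 (Cox7a2) to -0.06 (Cox8a). Without double replicate 3 the Cox6a2 change was 0.95 with an adjusted p of 0.06, the 1 alternative of 14 that ended the call, and over the alternatives the adjusted p ranged from 1.75e-08 to 0.06.

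In the PTGC line the ubiquitous partner did not follow. Cox6a1 had 2261, 2170.0 and 1835 normalized counts in controls and 1737, 1881 and 1968 in doubles, which overlapped (log2 fold change -0.16 ± 0.11, adjusted p = 0.521 in limma). Cox7a2, the ubiquitous 7a form, had 2223, 2017 and 2571 in controls and 1848, 1844 and 1983 in doubles. Its groups did not overlap, yet the change of -0.26 ± 0.11 was not called (adjusted p = 0.408, limma). Cox7a1 (381, 363 and 350.3 against 269.9, 322 and 378), Cox8a (2801, 2550.0 and 1694 against 2150.0, 1992 and 2473) and Cox8b (99.8, 94.1 and 78.0 against 84.8, 83.7 and 66.6) overlapped between the groups.

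In the FST line the knockouts were not alike for Cox6a2. Controls had 258, 238 and 223 normalized counts, Eif2a mutants 318, 281 and 277, Ptpmt1 knockouts 181, 175 and 659, and doubles 231, 155 and 171. Knockout replicate 3 was the highest of the 12 libraries, while replicates 1 and 2 lay below every control. All 3 mutants lay above all controls. The fitted change of 0.20 ± 0.35 (limma, adjusted p = 0.878) averages over these libraries, with a 95% interval of -0.54 to 0.95. That interval holds both no change and a change of nearly the PTGC size. Without knockout replicate 3 the fitted change was -0.42.

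The ubiquitous Cox6a1 and Cox8a and the muscle form Cox7a1 were also low in FST Ptpmt1 knockout replicates 1 and 2. Cox6a1 had 1215, 1248 and 1323 normalized counts in FST controls against 644, 728 and 1149 in Ptpmt1 knockouts. Cox7a1 had 222, 229 and 201 against 109, 123 and 171, and Cox8a had 1429, 1505 and 1492 against 885, 948 and 1516. For each of the 3 genes, knockout replicates 1 and 2 lay below every control and replicate 3 was the highest knockout. The same held for Cox6a2, Cox7a2 and Cox8b. Replicate 3 lay below every control for Cox6a1 and Cox7a1 and just above them for Cox8a, whereas for Cox6a2 it was far above them.

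The log2 fold changes in FST knockouts were -0.63 ± 0.16 for Cox6a1 (adjusted p = 0.101), -0.71 ± 0.17 for Cox7a1 (0.0886) and -0.44 ± 0.16 for Cox8a (0.239), all by limma. Cox8b had 65.0, 70.6 and 31.6 in controls and 24.7, 12.3 and 50.5 in knockouts (-1.04 ± 0.51, adjusted p = 0.383), on few reads. Cox7a2 had 1231, 1280.0 and 1254 in controls and 1064, 1207 and 1269 in knockouts, the smallest difference of the set (-0.09 ± 0.10, adjusted p = 0.753). By limma 0 of 6 isoforms were called, where 0.504% of all genes were; 3 had an unadjusted p under 0.05, edgeR called 0 and DESeq2 called 1 (Cox6a1, -0.58, adjusted p = 0.0141). Without knockout replicate 3, Cox6a1 (-0.88, adjusted p = 0.000538), Cox7a1 (-0.90, 0.00611) and Cox8a (-0.69, 0.00419) were called, among 847 genes in all.

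Short genes as a class were slightly lower in the first of these libraries. The median log2 difference from the control mean over 398 tested genes of at most 1000 exonic bases was -0.21, -0.08 and -0.08 in FST knockout replicates 1, 2 and 3. The difference of Cox6a1 was -0.97, -0.79 and -0.13 in the same libraries, and that of Cox7a2, also a short gene, was -0.24, -0.06 and 0.02. The part of transcript length in the isoform differences was not tested.

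**Figure D2:**
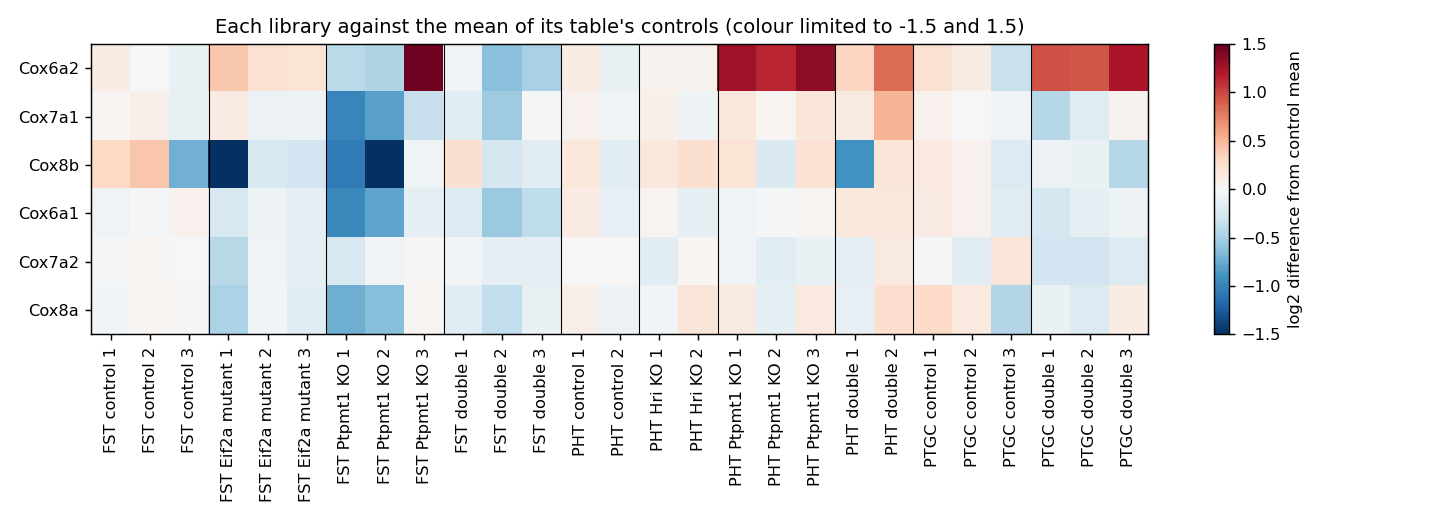
Log2 difference of each isoform (rows) from the mean of the controls of the same table, in each of the 27 libraries (columns, with black lines between groups). Red is higher and blue lower. FST Ptpmt1 knockout replicates 1 and 2 are low for Cox6a1, Cox7a1, Cox8b and Cox8a. They are less low for Cox6a2 (-0.40 and -0.45) and Cox7a2 (-0.24 and -0.06). Replicate 3 is high for Cox6a2 (1.46) and close to controls for Cox8a (0.04).

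Adding the Eif2a mutation to the Ptpmt1 knockout left the isoforms at or somewhat below control levels. Doubles had 1095, 857 and 972 normalized counts of Cox6a1, 192, 150.3 and 213 of Cox7a1, and 1318, 1145 and 1362 of Cox8a. Cox7a2 had 1216, 1145 and 1140.0, and Cox8b 62.3, 44.2 and 46.8. Every double lay below every control for Cox6a1, Cox7a2 and Cox8a, although the changes of -0.38 ± 0.16 (adjusted p = 0.429), -0.10 ± 0.10 (0.75) and -0.21 ± 0.16 (0.681) were not called by limma. For Cox6a2, Cox7a1 and Cox8b doubles and controls overlapped. Separation of groups is given as a description throughout, with no share over all genes beside it.

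Against FST controls limma called 0 of 6 isoforms in doubles (0.144% of all genes; 1 at an unadjusted p under 0.05, and 0 by edgeR and by DESeq2). Against Ptpmt1 knockouts it called 0 of 6 as well (0.878% of all genes; 1 unadjusted, 0 by edgeR and 0 by DESeq2), the largest differences being Cox8b (0.99 ± 0.51), Cox6a2 (-0.59 ± 0.35) and Cox7a1 (0.47 ± 0.17). Without knockout replicate 3, Cox7a1 (0.66, adjusted p = 0.045), Cox6a1 (0.50, 0.0209) and Cox8a (0.47, 0.0414) were higher in doubles than in knockouts. They were called by limma, among 324 genes in all. The Cox6a2 difference rested on the same knockout replicate and was 0.04 without it.

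The Eif2a mutation alone changed none of the isoforms past the test. Mutants had 1071, 1194 and 1138 normalized counts of Cox6a1, 237, 204 and 207 of Cox7a1, 939, 1208 and 1146 of Cox7a2, 1063, 1434 and 1307 of Cox8a, and 12.7, 44.9 and 43.0 of Cox8b. The first mutant, a library that stood apart, was the lowest of the 3 for Cox6a1, Cox7a2, Cox8a and Cox8b and the highest for Cox6a2 and Cox7a1. In mutants against controls limma called 0 of 6 (0.036% of all genes), with 0 at an unadjusted p under 0.05 and 0 by edgeR and DESeq2, and doubles against mutants gave the same 4 counts (0.0072% of all genes). The interaction, which asks whether the Ptpmt1 effect differed with and without the Eif2a mutation, was called for 0 of 6 by limma (0.0216% of all genes; 1 unadjusted, 0 by edgeR, 0 by DESeq2), and was -0.87 ± 0.49 for Cox6a2 and 1.81 ± 0.72 for Cox8b. Without Ptpmt1 knockout replicate 3 the Cox6a2 interaction was -0.25.

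In PHT animals that lacked both Hri and Ptpmt1, the 303 and 432 normalized counts of Cox6a2 lay below the 533 to 612 of the Ptpmt1 knockouts. The log2 fold change was -0.67 ± 0.14, and -0.93 without double replicate 2, the higher of the pair. The interaction of the Ptpmt1 and Hri losses was -0.72 ± 0.21 for Cox6a2. Both values reuse the knockout libraries whose high Cox6a2 chose the set, so they are given with no test. Against controls, which also entered that choice, the doubles were higher by 0.58 ± 0.16, and by 0.55 with a sex term, whose size comes from the Ptpmt1 knockouts alone. Against Hri knockouts, which did not, the difference was 0.53 ± 0.16 (adjusted p = 0.754, limma). Both doubles lay above both controls and both Hri knockouts.

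Of the other 5 isoforms limma called 0 in PHT doubles against knockouts (0.327% of all genes; 0 at an unadjusted p under 0.05, 0 by edgeR, 0 by DESeq2) and 0 for the interaction (0.12% of all genes; 0 unadjusted, 0 by edgeR, 0 by DESeq2). For the same 5 isoforms limma, edgeR and DESeq2 called 0 in doubles against controls (0.0267% of all genes by limma), with Cox7a1 alone at an unadjusted p under 0.05. Over all isoforms limma called 0 of 6 in doubles against Hri knockouts (0.02% of all genes, 3 unadjusted, 0 by edgeR, 0 by DESeq2). Without Cox6a2, whose controls entered the choice, limma called 0 of 5 in Hri knockouts against controls (0.02% of all genes, 0 unadjusted, 0 by edgeR, 0 by DESeq2). In comparisons of PHT controls with Hri knockouts or doubles, sex and genotype cannot be told apart from these libraries alone.

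The remaining PHT isoforms showed smaller differences. Cox6a1 had 1590.0 and 1351 normalized counts in controls, 1509 and 1334 in Hri knockouts, 1409, 1449 and 1506 in Ptpmt1 knockouts and 1635 and 1650.0 in doubles. Cox7a1 had 263 and 241, 266 and 238, 284, 259 and 286, and 277 and 359 in the same order. The doubles were the highest libraries for Cox6a1, and double replicate 2 was the highest for Cox7a1, Cox7a2 and Cox8a. Cox7a2 ranged from 1661 to 2044, Cox8a from 2427 to 3182 and Cox8b from 34.6 to 77.9 over the 9 PHT libraries, and for each of them the range of the knockouts overlapped that of the remaining libraries. Against controls alone, the Ptpmt1 knockouts lay lower for Cox7a2 (1667 to 1793 against 1843 and 1868).

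**Figure D3:**
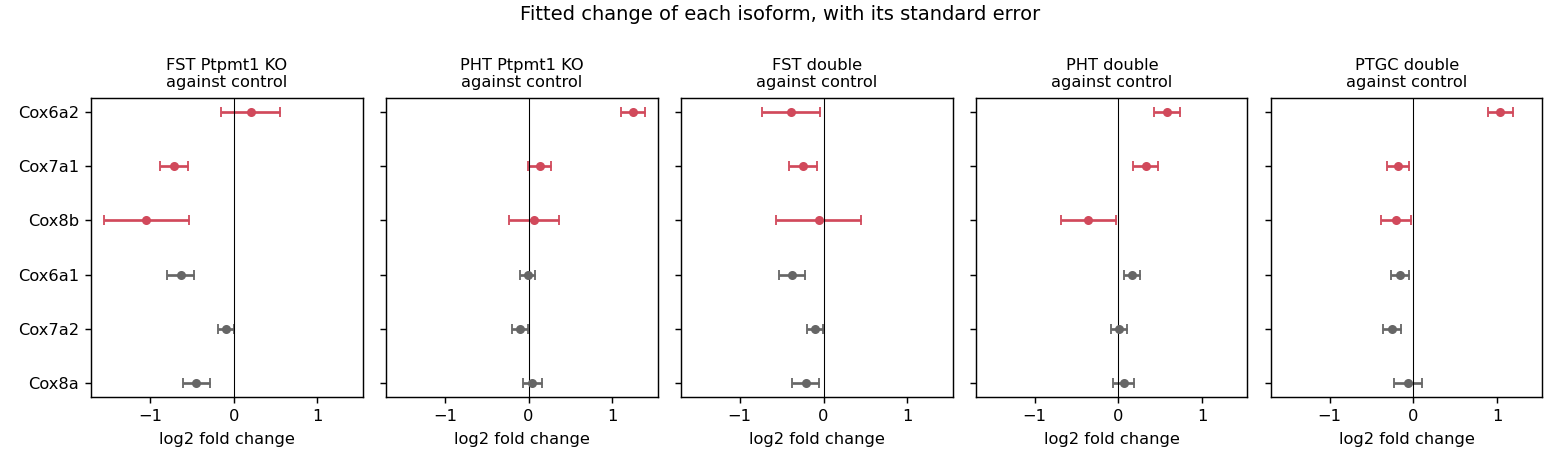
Fitted log2 fold change of each isoform (points) with its standard error (bars) in 5 comparisons with controls. Muscle forms are red and ubiquitous forms grey. Cox6a2 is at 1.25 in PHT Ptpmt1 knockouts, 1.04 in PTGC doubles and 0.20 in FST knockouts, where its standard error is 0.35.

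Ratios inside a library depend little on how it was scaled. The log2 ratio of Cox6a2 to Cox6a1 was -2.60 ± 0.003 (SD, n = 2) in PHT controls, -2.50 ± 0.12 in Hri knockouts, -1.34 ± 0.09 (n = 3) in Ptpmt1 knockouts and -2.18 ± 0.35 (n = 2) in doubles. As a share per kilobase, Cox6a2 was 14.5% of the pair in PHT controls, 29.0% in Ptpmt1 knockouts and 18.7% in doubles. In the PTGC line the log2 ratio was -2.22 ± 0.14 in controls and -1.02 ± 0.11 in doubles (18.2% and 33.8% as shares, n = 3 each), and the groups did not overlap.

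In the FST line the ratio separated Ptpmt1 knockouts from controls and from doubles, whose counts of Cox6a2 overlapped theirs. It was -2.39 ± 0.17 in controls, -1.95 ± 0.18 in Eif2a mutants, -1.56 ± 0.66 in Ptpmt1 knockouts and -2.40 ± 0.14 in doubles (n = 3 each). All 3 knockouts (-2.05 to -0.80) lay above all controls (-2.56 to -2.23) and all doubles (-2.50 to -2.24). In replicates 1 and 2 this came with a Cox6a1 count lower than in controls and a Cox6a2 count that was lower too, and in replicate 3 with a high Cox6a2 count. The mutants (-2.08 to -1.75) also lay above all controls and doubles.

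The 7a and 8 pairs showed other patterns. The log2 ratio of Cox7a1 to Cox7a2 was -2.53 ± 0.09 in FST controls and -3.15 ± 0.23 in FST Ptpmt1 knockouts, without overlap, a shift away from the muscle form. In the PHT line it was -2.88 ± 0.10 in controls, -2.64 ± 0.05 in Ptpmt1 knockouts and -2.56 ± 0.07 in doubles. Knockouts and doubles did not overlap these controls and lay toward the muscle form. In the PTGC line the ratio was -2.63 ± 0.21 in controls and -2.56 ± 0.20 in doubles, which overlapped. The log2 ratio of Cox8b to Cox8a overlapped between controls and Ptpmt1 knockouts in the FST (-4.78 ± 0.64 and -5.38 ± 0.68) and PHT lines (-5.33 ± 0.11 and -5.31 ± 0.08), and between PTGC controls and doubles (-4.66 ± 0.20 and -4.80 ± 0.34).

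**Figure D4:**
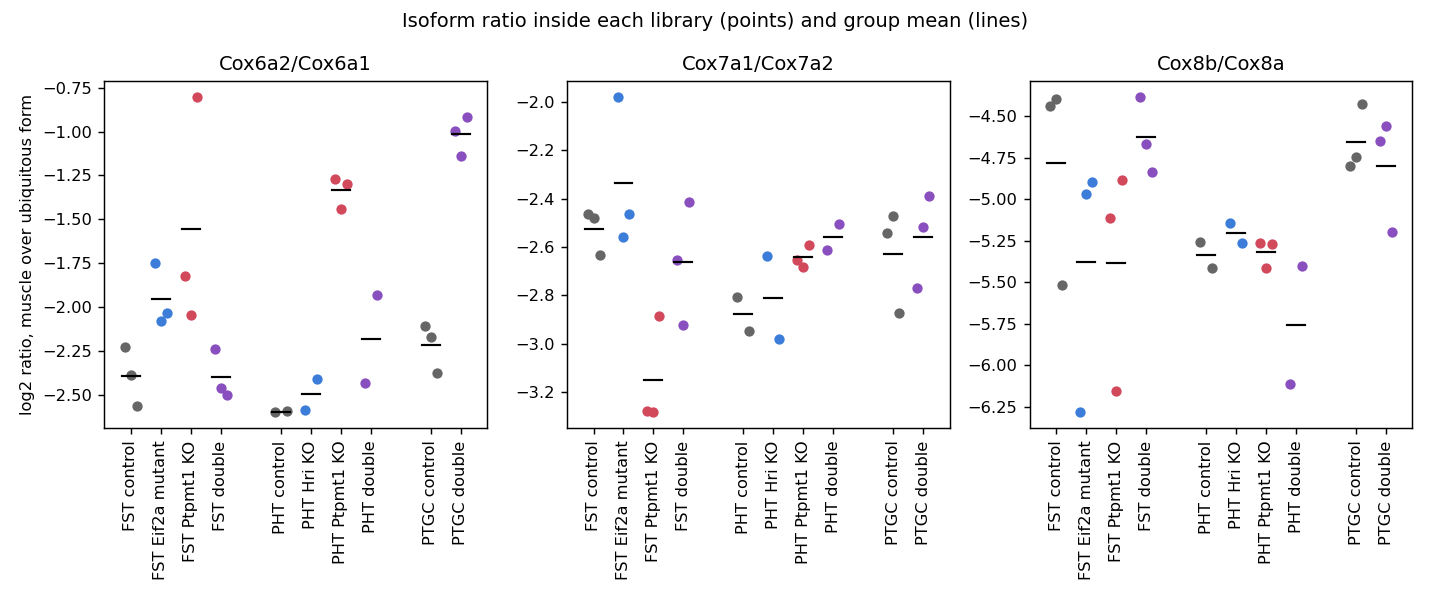
Log2 ratio of the muscle to the ubiquitous form (vertical axes, each with its own range) in every library (points), with the group mean (lines). The Cox6a2 to Cox6a1 ratio of Ptpmt1 knockouts lies above that of controls in the FST and PHT lines, and that of PTGC doubles above theirs, whereas the Cox7a1 to Cox7a2 ratio of FST knockouts lies below its controls.

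Averaged over the pairs, the difference between muscle and ubiquitous forms (mean log2 of the muscle forms minus that of the ubiquitous forms) was -3.60 ± 0.07 (SD) in PHT controls and -3.10 ± 0.07 in PHT Ptpmt1 knockouts, and -3.17 ± 0.05 in PTGC controls and -2.79 ± 0.05 in PTGC doubles. These groups did not overlap, and in both lines Cox6a2 was the muscle form that differed most. In the FST line controls (-3.23 ± 0.29), mutants (-3.22 ± 0.10), knockouts (-3.36 ± 0.49) and doubles (-3.23 ± 0.13) overlapped. In PHT knockouts the log2 fold changes of the other muscle forms were 0.13 ± 0.14 (Cox7a1) and 0.07 ± 0.30 (Cox8b).

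The rest of the enzyme and its assembly factors were compared in the 3 contrasts of Ptpmt1 loss with controls. Of 12 other nuclear-encoded subunits 11 were tested; limma called 0 in FST Ptpmt1 knockouts (median log2 -0.11; 3 at an unadjusted p under 0.05), 0 in PHT knockouts (0.10; 0) and 0 in PTGC doubles (-0.19; 2), and edgeR and DESeq2 called 0 in each. Medians over all genes tested were within 0.01 of 0. Of 24 assembly factors 23 were tested, with 0 called by limma, edgeR or DESeq2 in the same comparisons (medians -0.05, 0.05 and -0.11; 1, 0 and 2 unadjusted). Of the 3 mitochondrially encoded core subunits 2 were tested in the FST and PTGC tables and 3 in the PHT table, with median log2 fold changes of 0.73, -0.29 and -0.20 in FST knockouts, PTGC doubles and PHT knockouts. Limma and edgeR called 0 of them in each comparison (1 in FST knockouts, 1 in PHT knockouts and 0 in PTGC doubles at an unadjusted p under 0.05), and DESeq2 called 1 in PHT knockouts. In PHT knockouts 1 of the 3 had a positive fold change. In summed level the 3 held 0.86% to 0.93% of the signal in PHT knockouts against 0.61% to 0.75% in controls. They held 0.61% to 0.68% in FST knockouts against 0.25% to 0.56%, and 0.52% to 0.62% in PTGC doubles against 0.57% to 1.05%.

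Of 16 regulators of respiratory and muscle genes, among them Ppargc1a, Esrra, Nrf1 and Gabpa, limma called 0 in the same comparisons (medians -0.12, -0.03 and -0.01; 3, 0 and 3 unadjusted), edgeR called 0, and DESeq2 called 1 in FST knockouts. Among 20 genes of 10 other muscle and non-muscle pairs, such as those of creatine kinase and phosphofructokinase, 19 were tested. The liver-type phosphofructokinase Pfkl fell in FST knockouts (-0.59 ± 0.12, adjusted p = 0.0462, limma) and was higher in FST doubles than in knockouts (0.59 ± 0.12, adjusted p = 0.0328). In FST knockouts 18 of the 19 had negative fold changes (median -0.27), 10 had an unadjusted p under 0.05, edgeR called 1 and DESeq2 called 3. In PHT knockouts and PTGC doubles limma, edgeR and DESeq2 called 0 of 19 (medians -0.11 and -0.09; 1 and 2 unadjusted).

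The ISR panel of 9 genes (Asns, Atf4, Atf5, Chac1, Ddit3, Mthfd2, Phgdh, Psat1 and Trib3) was higher in Ptpmt1 knockouts and PTGC doubles, and not called in FST and PHT doubles. Limma called 8 of them higher in FST knockouts, all but Ddit3 (median log2 1.79), 9 in PHT knockouts (1.69) and 9 in PTGC doubles (2.16). EdgeR called 8, 9 and 9 and DESeq2 5, 9 and 9, and limma called 0.504%, 0.301% and 0.743% of all genes. Asns, the asparagine synthetase, rose by 2.36 ± 0.15, 2.14 ± 0.17 and 2.64 ± 0.11 in these comparisons (adjusted p = 1.56e-06, 3.1e-05 and 3.28e-07). In FST and PHT doubles 8 fell against knockouts in each line, again without Ddit3, and against controls 0 were called in either (FST: 1 at an unadjusted p under 0.05; PHT: 0; edgeR and DESeq2: 0). Against knockouts edgeR called 8 in each line and DESeq2 8 in FST and 9 in PHT. Limma called 0.878% and 0.327% of all genes there.

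The genes most like Cox6a2 over the 27 libraries, on log2 values centred within each table and among 10844 genes, were Got1, the cytosolic aspartate aminotransferase (Pearson r = 0.81, Spearman rho = 0.72), Atf5, a transcription factor of the ISR (0.81, 0.72), Stk40 (0.80, 0.78), the amino acid transporter Slc7a5 (0.80, 0.70) and the initiation factor Eif1 (0.80, 0.71). These are descriptions over libraries that share groups, tables and scaling. They include the PHT knockouts and controls whose Cox6a2 values chose the set, so the ranking is not independent of that choice. Within the FST, PHT and PTGC tables the r was 0.82, 0.78 and 0.85 with Got1 and 0.63, 0.88 and 0.97 with Atf5. It was 0.76, 0.87 and 0.89 with Stk40, 0.72, 0.82 and 0.94 with Slc7a5, and 0.89, 0.82 and 0.63 with Eif1. The ubiquitous partner Cox6a1 had an r of 0.29 with Cox6a2 over the 27 libraries.

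Side by side, Atf5 and Cox6a2 differed in FST knockouts and in PHT doubles. Atf5 had 102, 101 and 102 normalized counts in FST controls and 260.1, 234 and 724 in FST knockouts, so all 3 knockouts were above controls and replicate 3 most. Cox6a2 was above controls in replicate 3 but not in replicates 1 and 2. In PHT doubles Atf5 had 162 and 175, within the range of the controls (157 and 183), whereas Cox6a2 had 303 and 432 and lay above its controls.

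**Figure D5:**
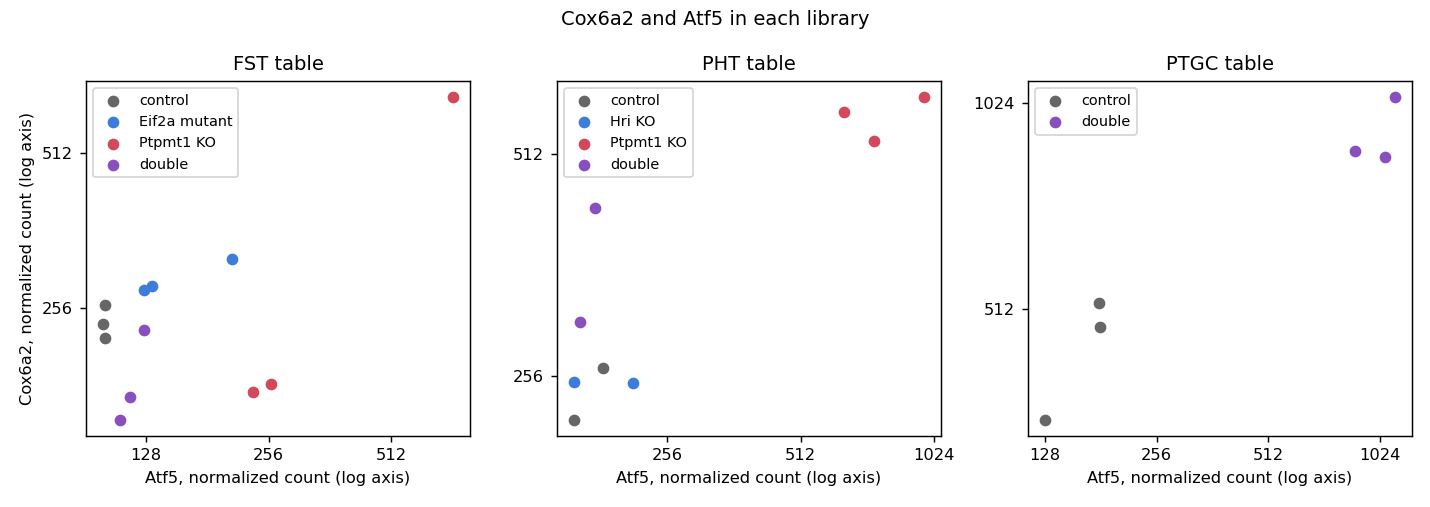
Normalized counts of Cox6a2 (vertical) and Atf5 (horizontal), both on log axes, in each library of the 3 tables, coloured by genotype. In the FST table knockout replicate 3 is high for both genes (659 and 724), and the other knockouts are above controls for Atf5 (234 and 260.1) but below them for Cox6a2 (175 and 181).

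The nearest genes of the other muscle forms were different. Cox7a1 was most like Uqcr11, a subunit of the cytochrome bc1 complex (r = 0.86, rho = 0.80), the RNA Rmrp (0.85, 0.81) and Cox6a1 (0.85, 0.71). Cox8b was most like Macrod1 (0.83, 0.80), the muscle phosphoglycerate mutase Pgam2 (0.81, 0.67) and the sphingosine-1-phosphate receptor S1pr3 (0.80, 0.72). Among the isoforms themselves the highest values were Cox6a1 with Cox7a1 (r = 0.85), Cox6a1 with Cox8a (0.77) and Cox8a with Cox8b (0.67), pairs that cross the muscle and ubiquitous classes, and r with Cox6a2 was at most 0.34 (Cox8a).

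The promoters of Cox6a1, Cox8a and Cox7a1 are shown because limma called these genes in FST knockouts when replicate 3 was left out. All isoforms lay below every control in FST knockout replicates 1 and 2. The sequences are from RefSeq on GRCm38.p6, where 5 of the 6 genes were matched, and run 5′ to 3′ along the gene from 250 bases before its start to 2 bases after it. Cox6a2 was the gene not matched, so its promoter was not searched and the results below do not cover it. Capitals mark matches to 7 motifs, searched on both strands in the window from 250 bases before to 50 after the start. The motifs were the NRF1 core GCATGCGC, the ETS site CCGGAAG, the E-box CAGCTG, the C/EBP-ATF core TGATGNAA, the ATF/CRE site TGACGTCA, the estrogen-related receptor element TNAAGGTCA and the MEF2 site.
Cox6a1 (chr5:115348957-115349208, minus strand): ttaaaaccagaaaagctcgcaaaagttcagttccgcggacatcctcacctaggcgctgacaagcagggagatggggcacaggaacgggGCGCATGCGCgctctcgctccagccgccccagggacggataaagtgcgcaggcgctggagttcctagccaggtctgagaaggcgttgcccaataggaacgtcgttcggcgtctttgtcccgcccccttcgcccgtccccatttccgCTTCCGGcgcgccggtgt
Cox8a (chr19:7217615-7217866, minus strand): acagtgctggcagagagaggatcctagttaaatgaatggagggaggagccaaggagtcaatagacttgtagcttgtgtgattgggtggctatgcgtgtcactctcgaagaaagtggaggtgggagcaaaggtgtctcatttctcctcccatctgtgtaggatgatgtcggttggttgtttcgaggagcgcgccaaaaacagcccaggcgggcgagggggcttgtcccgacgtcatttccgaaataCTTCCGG
Cox7a1 (chr7:30183921-30184172, plus strand): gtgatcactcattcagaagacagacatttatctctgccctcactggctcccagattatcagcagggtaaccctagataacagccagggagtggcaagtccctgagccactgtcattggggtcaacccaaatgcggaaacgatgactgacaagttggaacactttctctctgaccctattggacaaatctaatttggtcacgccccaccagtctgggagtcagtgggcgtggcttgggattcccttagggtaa
Cox6a1 held the NRF1 core, whose letters match on both strands in overlapping positions 162 and 160 bases before the start, and the ETS site 16 bases before it. Cox8a held the ETS site 5 bases before and 32 bases after the start. Cox7a1 and Cox7a2 held none of the 7. Cox8b held the E-box 19 bases before and 16 bases after its start. Of 32851 mouse promoters of the same length, 2.71% held the NRF1 core, 8.86% the ETS site, 16.3% the E-box, 3.97% the C/EBP-ATF core, 1.79% the ATF/CRE site, 1.28% the estrogen-related receptor element and 3.19% the MEF2 site. These are matches of letters and not measured binding. Window by window, the GC content was 63% in Cox6a1, 56% in Cox8a and 56.7% in Cox7a2, against 53% in Cox7a1 and 48.3% in Cox8b, and 52.7% was the median of all promoters. CpG dinucleotides numbered 32, 19 and 20 in the ubiquitous genes and 7 and 2 in the muscle genes Cox7a1 and Cox8b, with Cox6a2 not covered.

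Markers of other cells were compared beside these results. Skeletal muscle markers held 0.0139% to 0.0401% of the signal in FST libraries, and 0 of 5 tested were called by limma in FST, PHT or PTGC animals lacking Ptpmt1 against controls (0, 1 and 1 at an unadjusted p under 0.05; edgeR and DESeq2 called 1 each in the PTGC line and 0 in the others). Brown and white adipocyte markers held at most 0.00678%. Cardiomyocyte markers had negative fold changes for 10 of 11 genes in FST knockouts (median log2 -0.28), where 6 had an unadjusted p under 0.05 and limma, edgeR and DESeq2 called 0, 1 and 4. Their median was -0.03 in PHT knockouts and -0.003 in PTGC doubles. The erythroid markers had negative fold changes for 9 of 9 genes in each of FST knockouts (median -0.62; 0 at an unadjusted p under 0.05), PHT knockouts (-1.10; 8) and PTGC doubles (-0.68; 6). Limma, edgeR and DESeq2 called 0 of them in FST and PHT knockouts. In summed level they held 0.0108% to 0.0450% in FST knockouts against 0.0115% to 0.0428% in controls, 0.0147% to 0.0599% in PHT knockouts against 0.0680% to 0.0884%, and 0.0217% to 0.0271% in PTGC doubles against 0.0209% to 0.0583%. The globin gene Hbb-bs was higher in PHT doubles than in knockouts (2.28 ± 0.39, adjusted p = 0.0158, limma). Among the remaining marker lists Cspg4 of pericytes fell in FST knockouts (-0.53 ± 0.09, adjusted p = 0.0153) and the atrial gene Bmp10 rose in FST mutants (0.55 ± 0.08, adjusted p = 0.0236) and doubles (0.55 ± 0.08, adjusted p = 0.0114) against controls. In PTGC doubles fibroblast markers held 0.163% to 0.187% against 0.136% to 0.162% in controls, and macrophage markers 0.00255% to 0.00321% against 0.00211% to 0.002355%. Smooth muscle and pericyte markers held 0.133% to 0.157% against 0.168% to 0.180%. Endothelial and atrial shares overlapped there. In FST knockouts 7 of 7 fibroblast and 5 of 5 macrophage markers had positive fold changes (medians 0.29 and 0.53), and limma called 0 of either list. The part of these cells in the isoform differences was not tested.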

How the data were processed

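The authors deposited a normalized signal for each gene in each library. The submitters' processing notes list STAR 2.5.3a, DESeq2 1.12.4 and the build mm10 without saying what each did. How reads were counted, with which annotation and strandedness, is not given in the sources used here. Within a column of this deposited signal the values are whole multiples of 1 step, and dividing by it gave whole reads (tolerance 0.1), except that in PHT Ptpmt1 knockout replicate 3 the step was 1.0004. The tables were normalized separately, so levels were compared within a table only. Replicate libraries differed by more than sampling noise (chi-square per degree of freedom 2.17 to 39.6 over 24 pairs), and their numbers follow accession order.

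Genes with a value of at least 10 in as many libraries as the smallest group were tested with limma 3.58.1 (trend, R 4.3.3) on log2(value + 1), with 1 fit per table, 13 comparisons, two-sided p-values adjusted by Benjamini-Hochberg over all genes tested (13896, 14965 and 14128) and a threshold of 0.05. Fold changes are on this scale, which understates changes of low genes. Alternatives were edgeR 4.0.16 and DESeq2 1.42.0 on the recovered reads, TMM scaling, other pseudocounts and filters, a sex term and leaving out libraries. The fits were tested on simulated data. Gene models, lengths and coding sequences came from GENCODE M21, and promoters from RefSeq. The members and gene lists were chosen with earlier results of these data known. The text names the 6 members, genes of the other lists that were called (1 such result is not reported here), and the genes most like each muscle form (the 5 or 3 highest r among genes averaging 50 or more in each table).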

Additional observations from a re-analysis of the deposited data

Results flagged for a closer look

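Some isoforms had fold changes of opposite sign in different lines, with every library of each mutant group on its side of the control mean. Of the changes below only that of Cox6a2 in PTGC doubles was itself called by limma. In no such case was the difference between lines tested, because the tables were normalized separately, and the doubles of the lines carry different second changes. For Cox7a1 the log2 fold change of Ptpmt1 knockouts against controls was -0.71 in the FST line and 0.13 in the PHT line, and that of doubles was -0.24 and 0.32. For Cox6a2 doubles against controls gave -0.39 in the FST line, 0.58 in the PHT line (given with no test) and 1.04 in the PTGC line. For Cox6a1 they gave -0.38 in the FST line, 0.16 in the PHT line and -0.16 in the PTGC line.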

How the results depend on the processing

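Over the 78 changes of single isoforms, 1182 of 1194 alternative values kept their direction where called and their side of the threshold (or, untested, their size within the replicate spread). Of the others 9 were newly called, 1 lost its call and 2 moved. Newly called were changes that rest on FST Ptpmt1 knockout replicate 3 or PHT double replicate 2, or DESeq2 calls, and 2 of them concern Cox6a2 in PHT doubles against Ptpmt1 knockouts, which is described without a test. The others are given with the results above, and the lost call is that of Cox6a2 without PTGC double replicate 3. The untested change of Cox6a1 in PHT knockouts was 0.11 without control replicate 1 and -0.13 without control replicate 2. No called direction reversed under any alternative run. The muscle-minus-ubiquitous difference of PHT doubles against Ptpmt1 knockouts (-0.40) ranged from -0.62 to -0.18 when libraries were left out, and the PHT interaction (-0.50) from -0.72 to -0.28, with the ends set by leaving out 1 of the 2 doubles; the cause was not tested. The other 11 such differences stayed within the replicate spread. Groups of 2 or 3 libraries and, for Cox8b, 10 to 127 reads per library limit what could be detected. No paired analysis was possible because the labels carry no replicate numbers shared between groups.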
